A study of Mus musculus with 12 samples.

Results

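Gfap encodes the glial fibrillary acidic protein, an intermediate filament of astrocytes that is not confined to them. The paper on these tumors describes the mouse Gfap promoter as active in immature Schwann cells too, and reports GFAP staining in mouse schwannomas. For rhabdoid tumors of the genotype studied here, it reports no GFAP staining in most tumors examined. The little GFAP seen is described as lying in a few reactive astrocytes. It also reports GFAP staining of gliosis in tissue beside meningeal tumors. Staining shows protein, whereas the values below are RNA of whole tumor samples. The 12 rhabdoid tumors (RTs) of the series were ranked by the Gfap level measured in each tumor, and the 6 with the highest level (Gfap-high) were compared with the 6 with the lowest level (Gfap-low). All 12 tumors arose in P0-CreC;Smarcb1flox/flox mice, and no normal tissue or control genotype entered the comparison. In these mice, Cre recombinase under the P0 promoter deletes both floxed copies of Smarcb1 in early neural crest cells and the Schwann cell lineage, and cells of other lineages in a tumor keep the gene. The labels give neither the age of the mice nor any treatment of them. Tumors were dissected and frozen, and RNA depleted of ribosomal RNA was sequenced from each. The Gfap-high tumors were Meninges tumor 3 (259.84 RPKM, a read count scaled for gene length and library size), Meninges tumor 1 (228.19), Retro-orbital tumor 3 (128.13), Trigeminal nerve tumor (81.54), Meninges tumor 2 (65.13) and Vestibular nerve tumor (26.26). The Gfap-low tumors were Retro-orbital tumor 4 (13.34), Retro-orbital tumor 1 (0.63), Cheek tumor 1 (0.59), Cheek tumor 3 (0.35), Cheek tumor 2 (0.32) and Retro-orbital tumor 2 (0.31). The groups were chosen by these values, which are a description. The split by equal numbers placed Retro-orbital tumor 4 in the low group, although on a log scale the widest step in Gfap lay between it and the tumors below it. Gfap itself was left out of every result that follows.

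Astrocytes take up glutamate and potassium, supply neurons with metabolites and cover brain vessels with their end-feet, where the water channel Aqp4 is concentrated. Oligodendrocytes wrap central axons in myelin, a membrane rich in the proteins Mbp, Mag and Mog, and Schwann cells make the myelin of peripheral nerves with partly the same proteins. Neurons are recognised by genes of synaptic vesicles, glutamate and GABA receptors, and the neuronal cytoskeleton. In bulk RNA, fewer cells of a type and less RNA per cell cannot be told apart. The comparison asked whether genes of the 3 cell types followed Gfap together or apart.

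Location and Gfap group were nearly the same division of the tumors. The 3 meninges, the trigeminal nerve and the vestibular nerve tumors were all Gfap-high and the 3 cheek tumors all Gfap-low, and only the retro-orbital tumors, 1 high and 3 low, fell on both sides. For most of the comparison, Gfap group and location therefore cannot be told apart. The titles of 3 pairs of tumors share their first part (Cheek tumor 1 with Meninges tumor 1, Cheek tumor 2 with Cheek tumor 3, and Retro-orbital tumor 3 with Trigeminal nerve tumor), and whether a shared part marks one mouse is not stated. The consensus correlation of limma between tumors that share a part was 0.66, while the errors and p-values printed here treat the 12 tumors as independent. The fragment total behind the values ranged from 17800396 to 57128235 in the Gfap-high and from 13205561 to 41230420 in the Gfap-low tumors. Smarcb1, the deleted gene, was at 1.70 to 6.31 RPKM (median 4.72) in Gfap-high and 2.90 to 6.0 RPKM (median 4.13) in Gfap-low tumors, a log2 difference of -0.02 ± 0.26 (SE, n = 6 and 6, adjusted p = 0.98). The values of a whole gene do not show which exons its reads came from, so they do not check the deletion.

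Of 15042 genes that reached 1 RPKM in 3 or more tumors, 219 (1.46%) were higher and 53 (0.352%) were lower in Gfap-high tumors (limma on log2(RPKM + 1), Benjamini-Hochberg adjusted p under 0.05). Of the 219, 80 reached 1 RPKM only in Gfap-high tumors, as did 355 of all genes tested. Such genes entered the test through the group where they are high, so a difference was built into the filter for them, and the 1.46% includes them. In the same way, 6 of the 53 lower genes, Csrp3 and Ankrd2 among them, reached 1 RPKM only in Gfap-low tumors. At an unadjusted p under 0.05 there were 2837 genes (18.9%). The median log2 difference over all genes was 0.11, and 61.6% of genes had a positive one. Under quantile normalization, which gives every tumor the same distribution of values, the median was -0.01, with 102 genes higher and 43 lower. Differences below are to be read against this shift. The number of genes called rested on single tumors. The count of higher genes was 51 without Cheek tumor 2, 63 without Cheek tumor 3, 90 without Meninges tumor 3, 99 without Meninges tumor 1, 101 without Retro-orbital tumor 1, 108 without Retro-orbital tumor 2, 118 without Trigeminal nerve tumor and 557 without Cheek tumor 1. The count of lower genes was 5 without Cheek tumor 2, 7 without Cheek tumor 3, 12 without Meninges tumor 1, 13 without Meninges tumor 3, 15 without Retro-orbital tumor 1, 22 without Trigeminal nerve tumor, 29 without Vestibular nerve tumor, 101 without Retro-orbital tumor 4 and 237 without Cheek tumor 1. In each of these fits all 272 genes kept the direction they had with 12 tumors. With only 1 tumor of each shared title part (4 Gfap-high and 5 Gfap-low tumors), 3 genes were higher and 0 lower, and 1316 genes were at an unadjusted p under 0.05. Without the 3 cheek tumors 13 genes were higher and 10 lower, and without the 3 meninges tumors 86 and 17.

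The genes with the largest differences among those higher in every Gfap-high tumor than in any Gfap-low tumor were led by astrocyte and brain matrix genes. Ncan, which encodes the brain proteoglycan neurocan (GRCm38 chromosome 8, 70093085 to 70120863), was at 3.27, 24.9 and 135.2 RPKM (lowest, median and highest) in Gfap-high tumors and at 0.06, 0.11 and 0.77 RPKM in Gfap-low tumors. Its log2 difference was 4.28 ± 0.62 (SE, adjusted p = 0.006). Slc1a3 (chromosome 15, 8634124 to 8710807) and Slc1a2 (chromosome 2, 102658239 to 102790784) encode the main glutamate transporters of astrocytes. Slc1a3 was at 21.1, 44.3 and 77.6 RPKM against 0.61, 2.30 and 5.23 RPKM, a log2 difference of 3.80 ± 0.41 (adjusted p = 0.0016). Slc1a2 was at 2.77, 13.4 and 39.4 RPKM against 0.11, 0.22 and 0.89 RPKM, a log2 difference of 3.45 ± 0.48 (adjusted p = 0.0049). Among the Gfap-low tumors, Slc1a2 was highest in Retro-orbital tumor 4. Gpr37l1 (chromosome 1, 135160250 to 135167681), an orphan receptor of astrocytes, had the smallest adjusted p of all genes (5.7e-04), with 5.84, 8.06 and 16.9 RPKM against 0.00, 0.11 and 0.94 RPKM and a log2 difference of 3.13 ± 0.27. Ncan, Slc1a2 and Gpr37l1 reached 1 RPKM only in Gfap-high tumors, as did A2m below, and so entered the test through that group alone. The others of this set were Fam107a, Plscr5, the brain metallothionein Mt3, the secretory granule gene Scg3, the forkhead factor Foxc1, the protease inhibitor A2m, the brain aldolase Aldoc and the fatty acid binding protein Fabp7, with log2 differences of 4.15, 3.97, 3.86, 3.6, 3.58, 3.49, 3.44 and 3.26. Over all genes, 236 (1.57%) had all 6 Gfap-high tumors above all 6 Gfap-low tumors and 49 (0.326%) had all 6 below.

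**Figure D1:**
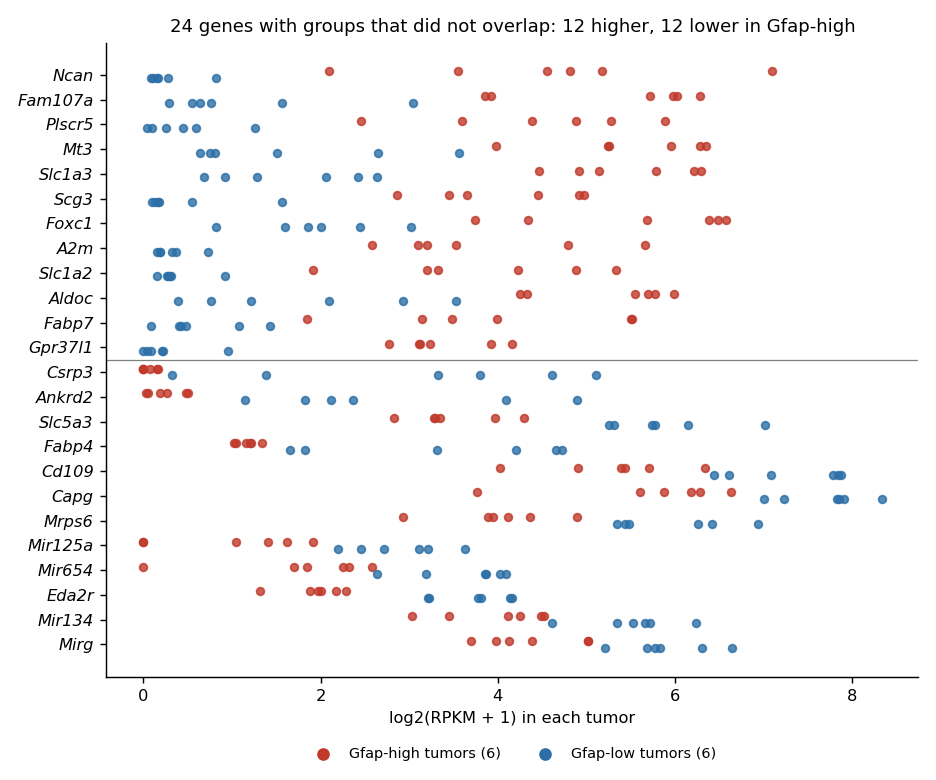
Level of 24 genes in each tumor, on the log2(RPKM + 1) scale (x axis), for the 12 higher and the 12 lower genes with the largest differences among called genes whose groups did not overlap. Each point is 1 tumor, red for Gfap-high and blue for Gfap-low. Ncan ranges from 3.27 to 135.2 RPKM in red and stays at or below 0.77 RPKM in blue, while Cd109 is at 85.6 RPKM or more in every blue point and at 79.6 RPKM or less in every red one.

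The genes lower in every Gfap-high tumor were of another kind. Muscle genes came first. Csrp3, the muscle LIM protein, was at 0.00, 0.03 and 0.12 RPKM in Gfap-high and at 0.25, 10.9 and 33.6 RPKM in Gfap-low tumors (log2 difference -3.03 ± 0.69, adjusted p = 0.048), with 0 to 3 fragments behind each Gfap-high value. Ankrd2, a muscle ankyrin repeat gene, was at 0.02, 0.17 and 0.42 against 1.22, 3.75 and 28.7 RPKM (log2 difference -2.49 ± 0.54, adjusted p = 0.04). The next genes are no muscle markers. Slc5a3, the myo-inositol transporter (chromosome 16, 92058322 to 92087473), was at 6.09, 8.98 and 18.7 RPKM in Gfap-high and 37.2, 53.2 and 128.3 RPKM in Gfap-low tumors, a log2 difference of -2.37 ± 0.32 (adjusted p = 0.0036). Mrps6, a mitochondrial ribosomal protein gene, overlaps it (92058336 to 92112227, log2 difference -1.95), and reads in the overlap could count for either. Eda2r, a receptor of the tumor necrosis factor family, was at 1.49, 2.97 and 3.9 against 8.27, 12.9 and 16.9 RPKM (log2 difference -1.78 ± 0.23, adjusted p = 0.003). Capg, an actin capping gene, was at 12.6, 64.7 and 98.3 against 127.7, 228.6 and 320.9 RPKM, a log2 difference of -1.97. Cd109, a membrane protein gene, had a log2 difference of -1.97 as well, and the fatty acid binding protein gene Fabp4 one of -2.23. The remaining 4 of the set were noncoding: Mir125a (-1.89), Mir654 (-1.83), Mir134 (-1.54) and Mirg (-1.54), 3 of them from one region of chromosome 12 that is described last.

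Astrocyte genes had the largest median difference of the 3 lists. Of 30 listed genes 29 were tested, 14 were higher (48.3%, beside 1.46% of all genes), 0 were lower and 15 did not pass. The median log2 difference over the 29 was 1.81, beside 0.11 over all genes. Of the 14, 6 reached 1 RPKM only in Gfap-high tumors and so entered the test through that group alone, and for these a difference was built into the filter. Aqp4, the water channel (chromosome 18, 15389394 to 15410982), had the largest difference. It was at 13.4, 46.4 and 120.9 RPKM in Gfap-high and at 0.15, 0.20 and 15.4 RPKM in Gfap-low tumors, a log2 difference of 4.27 ± 0.73 (adjusted p = 0.015). The groups overlapped through a single tumor, Cheek tumor 1, at 15.4 RPKM, and the next Gfap-low tumor was Retro-orbital tumor 4 at 2.83 RPKM. S100b, a calcium binding protein of astrocytes and Schwann cells, was at 8.56, 14 and 32.5 against 0.59, 1.75 and 6.02 RPKM (log2 difference 2.57 ± 0.39, adjusted p = 0.0067). Fabp7, found in radial glia, astrocytes and Schwann cell precursors, was at 2.59, 12.5 and 44.8 against 0.06, 0.37 and 1.70 RPKM (log2 difference 3.26 ± 0.56, adjusted p = 0.016). Besides Aqp4, Slc1a3, Slc1a2, S100b, Fabp7, Aldoc and Gpr37l1, the genes that passed were Atp1b2 (log2 difference 2.60), Mlc1 (2.84), Hepacam (1.99), Acsbg1 (2.17), Bcan (2.21), Ntsr2 (2.0) and Slc39a12 (1.37). The count was between 10 and 16 whichever tumor was left out.

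The astrocyte genes that did not pass fell into different kinds. Aldh1l1, the folate enzyme widely used to mark astrocytes, was at 1.65, 8.24 and 16.2 RPKM in Gfap-high and 0.22, 0.84 and 3.0 RPKM in Gfap-low tumors, a log2 difference of 1.81 ± 0.46 (adjusted p = 0.07). Sox9, a transcription factor of astrocytes that cartilage and neural crest also use, was at 0.96, 3.03 and 6.86 against 0.16, 0.73 and 6.59 RPKM (log2 difference 0.87 ± 0.48, adjusted p = 0.34). Of the genes tested, 26 of 29 had a positive difference. The 3 with a negative one were Gja1, a gap junction gene (-0.89), Ttyh1 (-0.49) and Agt, the angiotensinogen gene (-0.38), none of which passed. They were chosen after their values were seen. Agt reached 96.6 RPKM in Cheek tumor 3 and 124.8 RPKM in Cheek tumor 2, and at most 10.2 RPKM in any Gfap-high tumor.

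Oligodendrocyte and myelin genes were also higher, at lower levels and with fewer calls. Of 30 listed genes 20 were tested, 6 were higher (30%, beside 1.46% of all genes), 0 were lower and 14 did not pass. The median log2 difference was 1.13. A positive difference was found for 19 of the 20, beside 61.6% of all genes. The 10 untested genes, Olig2 among them, did not reach 1 RPKM in 3 tumors. Bcas1, expressed in early myelinating oligodendrocytes, was at 2.05, 5.73 and 33.7 RPKM in Gfap-high and 0.12, 0.16 and 1.06 RPKM in Gfap-low tumors (log2 difference 2.56 ± 0.49, adjusted p = 0.024). Mal, a myelin raft gene (2.49), Mag, the myelin-associated glycoprotein (1.54), and Ermn (1.5) also passed. Of the 20 tested genes, 6 reached 1 RPKM only in Gfap-high tumors, and 1 of these was called, the lineage transcription factor Olig1, whose difference was thus built into the filter. Olig1 was at 0.34, 1.12 and 2.77 RPKM in Gfap-high tumors (21 to 111 fragments) and at 0.00, 0.01 and 0.07 RPKM in Gfap-low tumors (0 to 6 fragments), a log2 difference of 1.09 ± 0.24 (adjusted p = 0.039).

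The myelin genes that Schwann cells share or that are abundant in many cells gave wider overlap. Mbp was at 6.40, 16.0 and 26.8 RPKM against 1.41, 5.19 and 17.7 RPKM (log2 difference 1.33 ± 0.52, adjusted p = 0.2), the 17.7 RPKM being that of Retro-orbital tumor 4. Mog, a gene of central myelin, was at 0.80, 1.16 and 1.74 RPKM (29 to 81 fragments) against 0.06, 0.37 and 0.89 RPKM (3 to 41 fragments), a log2 difference of 0.66 ± 0.20 (adjusted p = 0.11). Mobp was at 0.31, 1.21 and 3.59 against 0.00, 0.03 and 0.29 RPKM (log2 difference 1.04 ± 0.26, adjusted p = 0.067). Cldn11, a tight junction gene of myelin and meninges, had a log2 difference of 2.42 ± 0.62 (adjusted p = 0.071), and Sox10, shared by the oligodendrocyte and Schwann cell lineages, one of 0.72 ± 0.30 (adjusted p = 0.22). The calls of this list rested on single tumors. The 6 became 0 without Cheek tumor 2, 1 without Cheek tumor 3, Meninges tumor 1 or Retro-orbital tumor 1, and 2 without Meninges tumor 3 or Retro-orbital tumor 2, while the median stayed between 1.05 and 1.30 whichever tumor was left out.

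Neuronal genes also leaned higher, with a smaller median difference. Of 48 listed genes 38 were tested, 8 were higher (21.1%, beside 1.46% of all genes), 0 were lower and 30 did not pass. The median log2 difference was 0.73. A positive difference was found for 33 of the 38, beside 61.6% of all genes. At an unadjusted p under 0.05 there were 18, beside 18.9% of all genes. Of the 8, 5 reached 1 RPKM only in Gfap-high tumors: Snhg11, Cplx1, Nsg2, Gria2 and Stmn3. These entered the test through that group alone, and for them a difference was built into the filter. The called genes were of the synapse and axon, and most were low. Snhg11, a long noncoding RNA of neurons, was at 2.24, 3.92 and 15.7 RPKM in Gfap-high and 0.01, 0.10 and 0.32 RPKM in Gfap-low tumors (log2 difference 2.26 ± 0.35, adjusted p = 0.0082). Cplx1, which regulates vesicle release, was at 0.99, 3.04 and 5.41 against 0.00, 0.02 and 0.08 RPKM (log2 difference 1.89 ± 0.28, adjusted p = 0.006). Nsg2, a neuronal endosome gene, was at 1.23, 2.50 and 6.47 against 0.00, 0.01 and 0.31 RPKM (log2 difference 1.81 ± 0.26, adjusted p = 0.0056). Gria2, an AMPA glutamate receptor subunit (chromosome 3, 80681450 to 80804227), was at 1.52, 1.82 and 4.37 against 0.00, 0.12 and 0.34 RPKM (log2 difference 1.49 ± 0.22, adjusted p = 0.0067). Stmn3 (1.69), the synaptic vesicle gene Syp (1.60) and the axonal motor Kif5a (1.49) were also among the 8. The count was 4 without Cheek tumor 2 and 5 without Cheek tumor 3, Meninges tumor 1, Meninges tumor 3, Retro-orbital tumor 1 or Trigeminal nerve tumor.

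Other neuronal genes did not pass the test. Snap25, a core gene of vesicle fusion, was at 12.8, 17.9 and 30.9 RPKM in Gfap-high and 5.82, 14.9 and 25.5 RPKM in Gfap-low tumors (log2 difference 0.41 ± 0.35, adjusted p = 0.56). Tubb3, the neuronal tubulin, was at 0.72, 5.57 and 9.00 against 0.46, 5.48 and 10.9 RPKM (log2 difference 0.25 ± 0.63, adjusted p = 0.86). The level of Nefl, the light neurofilament (chromosome 14, 68083863 to 68089095), set a pair of tumors apart. It was at 411.7 RPKM in Cheek tumor 2 and 334.8 RPKM in Cheek tumor 3, against 1.49 to 10.1 RPKM in the Gfap-high tumors and 4.35 to 12.5 RPKM in the other Gfap-low tumors (log2 difference -2.26 ± 1.12, adjusted p = 0.29). Stmn2, a growth cone gene, was highest in Retro-orbital tumor 1 (150.3 RPKM) and Retro-orbital tumor 2 (74.3 RPKM), with a log2 difference of -1.18 ± 0.88 (adjusted p = 0.5). Syt1, the calcium sensor of vesicle release, was highest in Retro-orbital tumor 4 (32 RPKM), and in the other tumors it was at 1.96 to 12.9 RPKM in Gfap-high and 0.22 to 3.98 RPKM in Gfap-low (log2 difference 1.19 ± 0.77, adjusted p = 0.43). Among the remaining defining genes, Map2, Gad1 and Slc17a7 had log2 differences of 1.64, 1.11 and 0.73 with adjusted p of 0.098, 0.22 and 0.22, and Rbfox3 was too low to be tested, with 0.32 to 2.04 RPKM in Gfap-high and 0.02 to 0.24 RPKM in Gfap-low tumors.

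The lists were then set side by side in each tumor by the mean of log2(RPKM + 1) over their listed genes, here called the list level. The astrocyte level was 3.97, 4.20, 3.93, 3.32, 2.92 and 2.86 in the Gfap-high tumors, in falling order of Gfap, and 1.90, 1.37, 2.07, 1.91, 1.81 and 1.77 in the Gfap-low tumors. The groups did not overlap, and within the Gfap-high tumors the 3 with the most Gfap also had the highest astrocyte levels. The oligodendrocyte level was 2.09, 2.48, 1.67, 1.40, 1.79 and 1.88 in the Gfap-high and 1.25, 0.75, 1.04, 0.75, 0.77 and 0.82 in the Gfap-low tumors. These groups did not overlap either, but inside the Gfap-high group the order was a different one, with Vestibular nerve tumor, lowest in Gfap, above both Retro-orbital tumor 3 and Trigeminal nerve tumor. The neuronal level was 2.69, 2.12, 1.46, 1.92, 2.04 and 1.96 in the Gfap-high and 1.18, 1.47, 1.14, 1.49, 1.49 and 1.47 in the Gfap-low tumors. Retro-orbital tumor 3 ranked 3 in Gfap and lay inside the Gfap-low range for neuronal genes, and the other 5 Gfap-high tumors lay above that range. The neuronal level does not show the high Nefl and Stmn2 values of single Gfap-low tumors, since each gene counts equally on the log scale. Summed in RPKM, where abundant genes weigh most, the groups overlapped for all 3 lists. The astrocyte sum was 519.1 to 3096.9 (median 852.6) in Gfap-high and 281.3 to 740.9 (median 543.4) in Gfap-low tumors, and the oligodendrocyte sum was 137.5 to 337.5 and 44.8 to 175.2. The neuronal list was at 147.0 to 413.5 (median 231.3) in Gfap-high and 134.1 to 701.7 (median 325.8) in Gfap-low tumors.

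**Figure D2:**
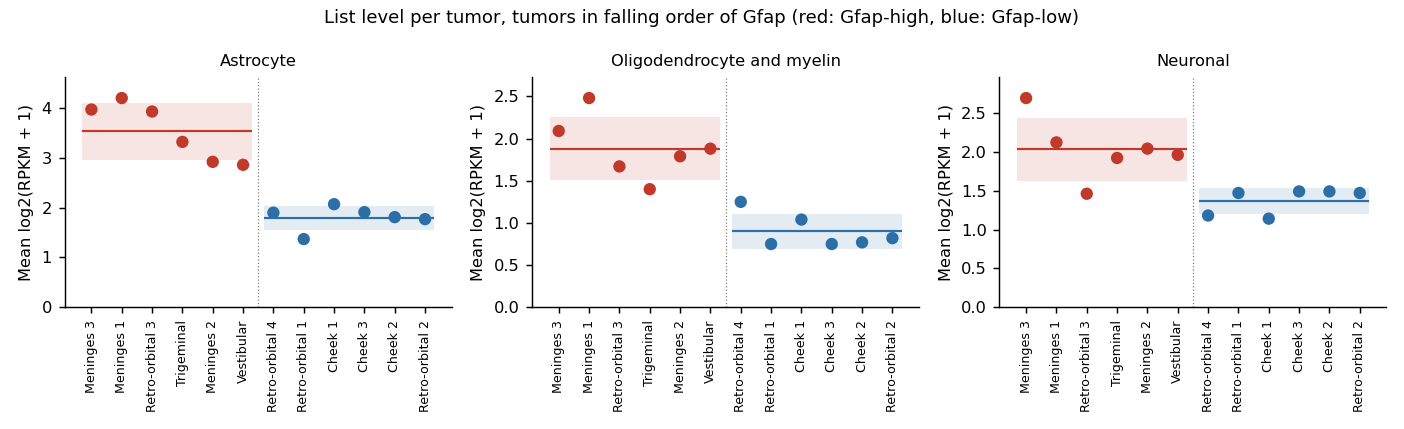
List level per tumor, the mean log2(RPKM + 1) over all listed genes (y axis), with tumors in falling order of Gfap (x axis). Each point is 1 tumor, lines are group means and bands are ± 1 SD (n = 6 per group). The astrocyte levels of 2.86 to 4.20 in Gfap-high and 1.37 to 2.07 in Gfap-low tumors leave a gap, as do the oligodendrocyte levels, while the neuronal level of Retro-orbital tumor 3 (1.46) falls among the Gfap-low tumors.

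Genes of the lists were also counted in single tumors. A gene was counted where a Gfap-high tumor lay above all 6 Gfap-low tumors. In Meninges tumor 3 this held for 19 of 29 astrocyte, 14 of 20 oligodendrocyte and 26 of 38 neuronal genes, beside 18.3% of all genes. In Meninges tumor 1 the counts were 22, 16 and 18 (25.1% of all genes), and in Meninges tumor 2 they were 14, 13 and 19 (18.8%). The shares of all 3 lists were above those of all genes in each meninges tumor. Each list included 6 genes that reached 1 RPKM only in Gfap-high tumors, as did 355 of all 15042 genes. The filter made it likely that such genes lie above the Gfap-low tumors, so part of these shares was built in. In Retro-orbital tumor 3 the counts were 23 of 29 astrocyte, 12 of 20 oligodendrocyte and 9 of 38 neuronal genes, beside 21.8% of all genes, so the neuronal share was near the background. In Trigeminal nerve tumor they were 18, 6 and 17 (17.2%), and in Vestibular nerve tumor 16, 13 and 12 (30.8%), with the neuronal share of the latter again near the background.

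The retro-orbital tumors were the only location with both Gfap groups, and there the lists came apart. This comparison sets 1 tumor against 3 and has no replicate of the Gfap-high side, so no test was made. Of 29 astrocyte genes, 25 were higher in Retro-orbital tumor 3 than in Retro-orbital tumors 1, 2 and 4, and 0 were lower than in all 3, beside 30.8% and 28.8% of all genes. Their median log2 difference was 2.29. Of 20 oligodendrocyte genes, 12 were higher and 1 lower, with a median of 0.73. Of 38 neuronal genes, 12 were higher and 5 lower, with a median of 0.19. Each list included 6 genes that reached 1 RPKM only in Gfap-high tumors, and for these the filter made a higher value in Retro-orbital tumor 3 more likely. Aqp4 showed the contrast within these tumors, at 120.9 RPKM in Retro-orbital tumor 3 and 0.15, 0.18 and 2.83 RPKM in Retro-orbital tumors 1, 2 and 4. Mag was at 1.25 RPKM in Retro-orbital tumor 3 and at 0.33, 0.27 and 1.46 RPKM in the other 3, and Tubb3 at 0.72 RPKM and at 1.01, 9.87 and 0.46 RPKM. With location as a covariate in the fit over all 12 tumors, which leaves the Gfap difference to these 4 tumors, the medians were the same 2.29, 0.73 and 0.19, and 1, 0 and 0 genes of the lists were called. In that fit Slc1a2 had a log2 difference of 3.77 (adjusted p = 0.063) and Aqp4 one of 6.14 (adjusted p = 0.11).

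Retro-orbital tumor 3 also had high values of many genes of airway and glandular epithelium, which were looked at after their values were seen. Of 22 such genes it was the highest tumor for 18. The other 4 did not single it out: Scgb1a1 and Scgb3a2 were at 0.00 RPKM in it, Epcam was at 170.6 RPKM beside 550.7 RPKM in Vestibular nerve tumor, and Krt18 at 220.5 RPKM beside 407.8 RPKM in the highest Gfap-low tumor. Bpifa1, a secreted protein of the nasal epithelium, was at 2390.4 RPKM in this tumor, at 145.4 RPKM in Cheek tumor 1 and at 1.30 to 4.11 RPKM in the other 10 tumors. Scgb1c1, a secretoglobin, was at 2002.0 RPKM, at 21.2 RPKM in Cheek tumor 1 and at 0.84 to 7.97 RPKM elsewhere, and the lectin Reg3g was at 1268.9 RPKM, 37.8 RPKM and 1.01 to 7.55 RPKM. Cheek tumor 1 was the second highest for these 3 genes and for 7 of the 22 in all. Airway epithelium also expresses Aqp4, Cldn10 and Clu, and Cldn10 was the single astrocyte list gene called with location as a covariate. What such epithelium contributed to the retro-orbital comparison was not tested. Without Retro-orbital tumor 3, the comparison of the remaining 11 tumors had 13 astrocyte, 5 oligodendrocyte and 7 neuronal genes higher, with medians of 1.70, 1.18 and 0.85.

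**Figure D3:**
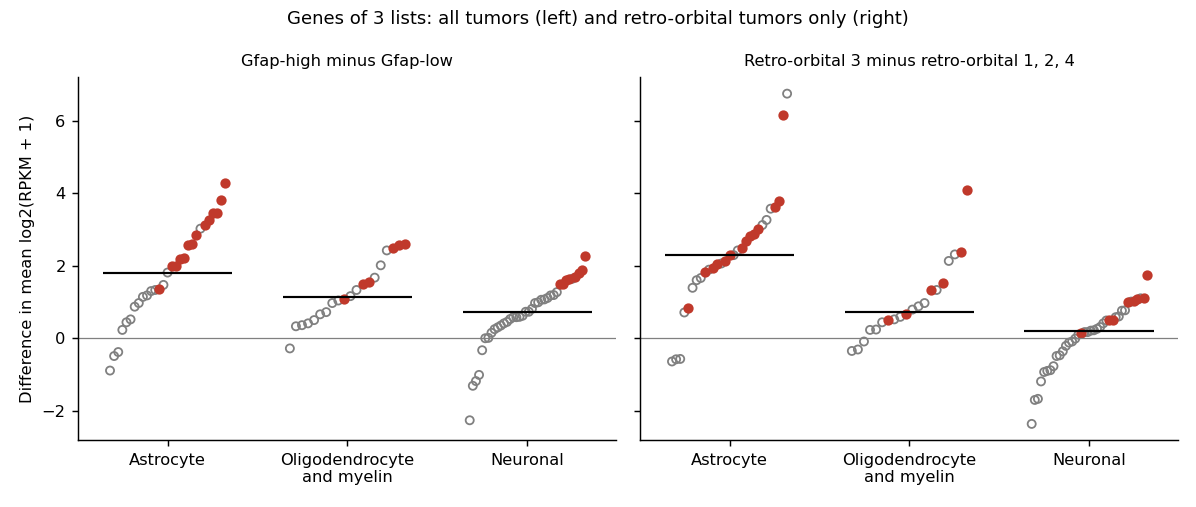
Difference in mean log2(RPKM + 1) for each tested gene of the 3 lists (y axis), between the Gfap groups over all tumors (left) and between Retro-orbital tumor 3 and the mean of Retro-orbital tumors 1, 2 and 4 (right). Filled red points are genes called higher in the comparison of all 12 tumors, open points are the others, and bars are medians. The medians are 1.81, 1.13 and 0.73 on the left and 2.29, 0.73 and 0.19 on the right.

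Retro-orbital tumor 4, at 13.34 RPKM of Gfap, stood between the groups for some genes and not for others. Its astrocyte level of 1.90 was inside the range of the other Gfap-low tumors (1.37 to 2.07). Its oligodendrocyte level of 1.25 was above theirs (0.75 to 1.04), and its neuronal level of 1.18 was near the bottom. When it was moved to the high group, which puts the division at that step, 253 genes were higher and 89 lower, and 134 of the 272 genes were called in both divisions. The lists then had 11 astrocyte, 4 oligodendrocyte and 5 neuronal genes called higher.

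Genes of reactive astrocytes, which mark the response of these cells to injury, went in both directions. Of 26 listed 25 were tested, 1 was higher (4%, beside 1.46% of all genes) and 2 were lower (beside 0.352% of all genes). The median log2 difference was 0.85. Steap4, a metalloreductase, was at 17.1, 84.1 and 106.4 RPKM in Gfap-high and 1.78, 4.39 and 20.1 RPKM in Gfap-low tumors (log2 difference 3.12 ± 0.59, adjusted p = 0.024). Emp1, an epithelial membrane protein gene, was at 12.5, 83.2 and 155.6 against 127.3, 464.5 and 1155.0 RPKM (log2 difference -2.91 ± 0.64, adjusted p = 0.04), and Cd109 was at 15.3, 41.6 and 79.6 against 85.6, 176.8 and 233.5 RPKM (adjusted p = 0.025). Emp1 and Cd109 are expressed in many mesenchymal and epithelial cells besides astrocytes. Lcn2, an iron-binding secreted protein, reached 2600.2 RPKM in Retro-orbital tumor 3 and 16.9 to 104.8 RPKM in the other Gfap-high tumors, with 1.69 to 38.6 RPKM in Gfap-low tumors (log2 difference 3.72 ± 1.05, adjusted p = 0.093). Cxcl10, a chemokine, had a log2 difference of 3.49 ± 0.93 (adjusted p = 0.078). The reactive list level overlapped widely, at 3.42 to 5.58 in Gfap-high and 3.6 to 4.69 in Gfap-low tumors.

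Of 20 listed regulators of the astrocyte fate, 18 were tested, 2 were higher (11.1%, beside 1.46% of all genes) and 0 lower. The median log2 difference over the 18 was 0.32. Nfia, a nuclear factor that starts gliogenesis (chromosome 4, 97578066 to 98118876), was at 11.0, 15.0 and 30.5 RPKM in Gfap-high and 5.13, 6.38 and 9.95 RPKM in Gfap-low tumors (log2 difference 1.17 ± 0.23, adjusted p = 0.029). Cntfr, the receptor subunit for ciliary neurotrophic factor, which reached 1 RPKM only in Gfap-high tumors, was at 0.46, 1.46 and 2.06 against 0.00, 0.06 and 0.49 RPKM (log2 difference 0.97 ± 0.22, adjusted p = 0.048). The other members named here did not pass. Nfib and Nfix had log2 differences of 0.54 and 0.25, Stat3, which transmits the signal of this receptor, one of 0.23, and Sox2 and Smad1 had 1.49 and -0.96 (adjusted p = 0.14 and 0.28).

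Schwann cell genes gave 4 calls among 22 tested of 25 listed (18.2%, beside 1.46% of all genes), with a median log2 difference of 0.83. But 3 of the 4 were also in the astrocyte or oligodendrocyte lists, S100b and Mag among them. The fourth, the adhesion gene Cadm4, was at 5.43, 12.7 and 24.1 RPKM in Gfap-high and 1.29, 1.88 and 6.40 RPKM in Gfap-low tumors (log2 difference 1.88 ± 0.38, adjusted p = 0.031). Erbb3, the neuregulin receptor of Schwann cells, had a log2 difference of 2.53 ± 0.81 (adjusted p = 0.13). Of 15 oligodendrocyte precursor genes 9 were tested, with a median of 0.06, and 1 was called (11.1%, beside 1.46% of all genes). It was Ptprz1, a receptor phosphatase also expressed by astrocytes (log2 difference 1.63, adjusted p = 0.015), and it too reached 1 RPKM only in Gfap-high tumors. In that list Pdgfra, a marker of these precursors and of fibroblasts, was at a median of 42.1 RPKM in Gfap-high and 143.8 RPKM in Gfap-low tumors (log2 difference -1.23, adjusted p = 0.34). Of 16 peripheral neuron genes, 6 were tested and 0 called. At an unadjusted p under 0.05 there was 1, beside 18.9% of all genes.

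Some genes of brain vessels passed. Of 17 brain endothelium genes, all tested, 4 were higher (23.5%, beside 1.46% of all genes) and 0 lower. The median log2 difference was 0.34. The 4 are known from the blood-brain barrier: the organic anion transporters Slco1c1 (log2 difference 2.10 ± 0.32, adjusted p = 0.0076) and Slco1a4 (1.89 ± 0.34, adjusted p = 0.019), the lipid transporter Mfsd2a (2.08 ± 0.33, adjusted p = 0.0084) and the tight junction gene Cldn5 (2.04 ± 0.46, adjusted p = 0.046). Slco1c1, Slco1a4 and Mfsd2a reached 1 RPKM only in Gfap-high tumors and entered the test through that group alone, which leaves Cldn5. Slco1c1 was at 1.35, 4.93 and 6.66 RPKM in Gfap-high and 0.02, 0.04 and 0.48 RPKM in Gfap-low tumors. Genes of all endothelium gave other values. Pecam1 was at 6.65, 12.0 and 29.6 against 7.41, 14.6 and 25.8 RPKM (log2 difference -0.14, adjusted p = 0.86), and Cdh5 had a log2 difference of -0.05 (adjusted p = 0.97). Astrocytes also express Slco1c1, so the list is not particular to vessels.

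Markers of other tissues moved with single tumors. The ependyma and choroid plexus level was 3.10 in Retro-orbital tumor 3 and 0.69 to 1.39 in the other Gfap-high tumors, against 0.54 to 1.40 in the Gfap-low tumors. Of its 7 tested genes 0 were called and 3 were at an unadjusted p under 0.05, beside 18.9% of all genes. Foxj1, the regulator of motile cilia, was at 39.2 RPKM at most in Gfap-high and 3.71 RPKM at most in Gfap-low tumors, and ciliated airway cells express it too. Skeletal muscle genes leaned the other way. Their level was 0.94 to 2.60 (median 2.21) in Gfap-high and 1.70 to 4.90 (median 3.98) in Gfap-low tumors, with a median log2 difference of -2.14. Of 14 genes 1 was called lower, beside 0.352% of all genes. It was Tnnc2, a troponin of fast muscle (log2 difference -3.19 ± 0.69, adjusted p = 0.038). Summed over the list, muscle genes were at 18 to 500.3 RPKM in Gfap-high and 77.5 to 800.9 RPKM in Gfap-low tumors. What muscle RNA, and the tissue beside each tumor, contributed to the other differences was not tested.

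**Figure D4:**
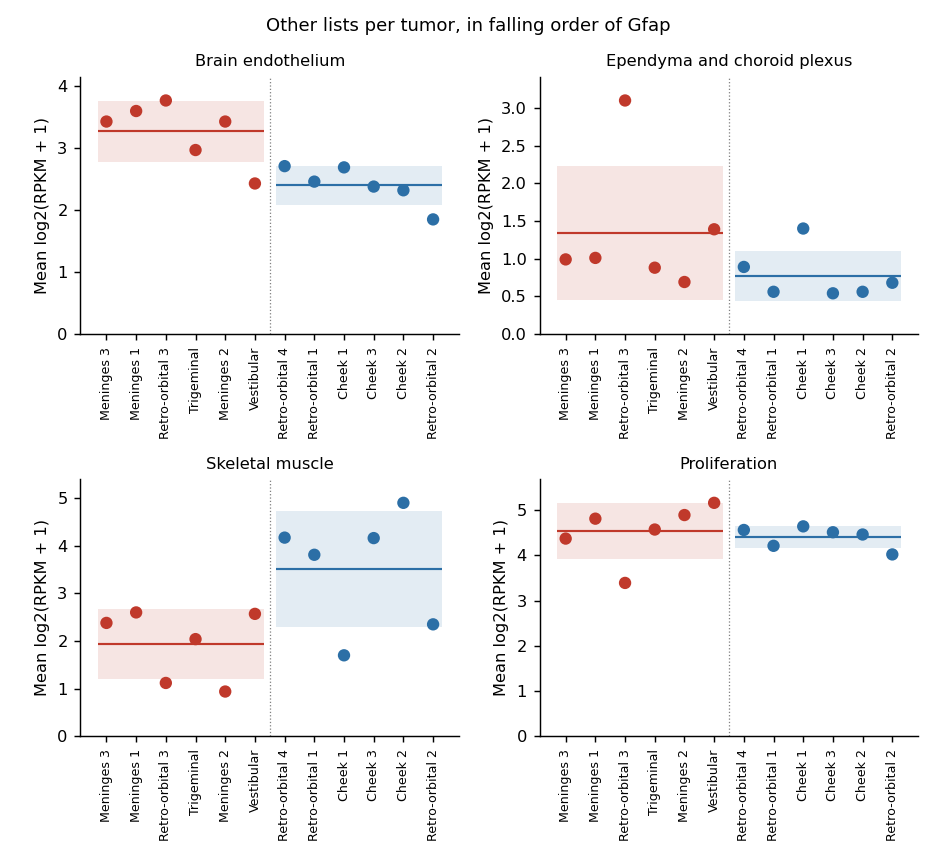
List level per tumor, the mean log2(RPKM + 1) over all listed genes (y axis), for brain endothelium, ependyma and choroid plexus, skeletal muscle and proliferation genes, with tumors in falling order of Gfap (x axis). Each point is 1 tumor, red for Gfap-high and blue for Gfap-low, lines are group means and bands are ± 1 SD (n = 6 per group). The ependyma level of Retro-orbital tumor 3 (3.10) stands above all others, and the same tumor has the lowest proliferation level (3.39).

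Markers of macrophages and microglia gave no calls among 24 tested genes (1 at an unadjusted p under 0.05, beside 18.9% of all genes). Their levels were 3.91 to 5.36 in Gfap-high and 4.24 to 5.75 in Gfap-low tumors. Proliferation genes gave none among 20 (1 at an unadjusted p under 0.05), with a median log2 difference of 0.12. Mki67, the proliferation antigen, was at a median of 61.5 RPKM in Gfap-high and 39.0 RPKM in Gfap-low tumors (log2 difference 0.33, adjusted p = 0.55). Neural crest genes gave none among 16 (6 at an unadjusted p under 0.05, beside 18.9% of all genes) with a median of 0.12. Intermediate filament genes gave none among 10 (4 at an unadjusted p under 0.05, beside the same 18.9%) with a median of -0.44. Vim, the vimentin gene, was at a median of 518.3 RPKM in Gfap-high and 2043.3 RPKM in Gfap-low tumors (log2 difference -1.71, adjusted p = 0.14). Of 13 meninges and fibroblast genes tested 1 was called higher (7.69%, beside 1.46% of all genes). It was Foxc1, a forkhead factor needed for the meninges (chromosome 13, 31806646 to 31810635), at 12.4, 66.7 and 94.1 RPKM in Gfap-high and 0.76, 2.82 and 7.10 RPKM in Gfap-low tumors. Of the retina and lens genes, 3 of 15 were tested, 0 were called, and 0 were at an unadjusted p under 0.05.

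A single imprinted region on chromosome 12 held 10 of the 53 genes lower in Gfap-high tumors. It was chosen after the values were seen. The Dlk1-Dio3 region encodes proteins from the paternal copy and, from the maternal copy, long noncoding RNAs (Meg3, Rian, Mirg) with many small nucleolar RNAs and microRNAs in their introns. Of 77 listed features between 109452485 and 110281097 (GRCm38), 60 were tested and all 60 had a negative log2 difference. Over all genes, 61.6% had a positive one. The median was -1.32 in the region, beside 0.11 over all genes. Of the 60, 10 were called lower, beside 0.352% of all genes: Rian, AF357426, AF357359, Mirg, Mir654, Mir134, Mir485, Mir377, Mir541 and Mir409. These features lie along shared transcripts, so they are not independent measurements. Rian was at 52.1, 111.8 and 245.8 RPKM in Gfap-high and 184.7, 324.2 and 408.1 RPKM in Gfap-low tumors (log2 difference -1.5 ± 0.32, adjusted p = 0.038). Mirg, the host of a microRNA cluster, was at 12.0, 18.2 and 31.4 against 35.9, 54.9 and 99.2 RPKM (log2 difference -1.54 ± 0.28, adjusted p = 0.021), and its groups did not overlap. Meg3 had a log2 difference of -0.61 ± 0.31 (adjusted p = 0.31) and Dlk1 one of -2.46 ± 1.09 (adjusted p = 0.25), with Dlk1 at 2.62 to 152.3 against 2.96 to 325.1 RPKM. The calls rested on single tumors, with 0 without Cheek tumor 2, 1 without Cheek tumor 3 or Meninges tumor 1, 2 without Retro-orbital tumor 1, 4 without Meninges tumor 3, 5 without Vestibular nerve tumor or Trigeminal nerve tumor and 16 without Meninges tumor 2, while 59 or 60 of the 60 differences stayed negative. There were 0 calls with 1 tumor per title part (59 negative) and without the 3 cheek tumors (59 negative), 1 with 7 against 5 tumors (54 negative) and 4 with location as a covariate (55 negative).

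**Figure D5:**
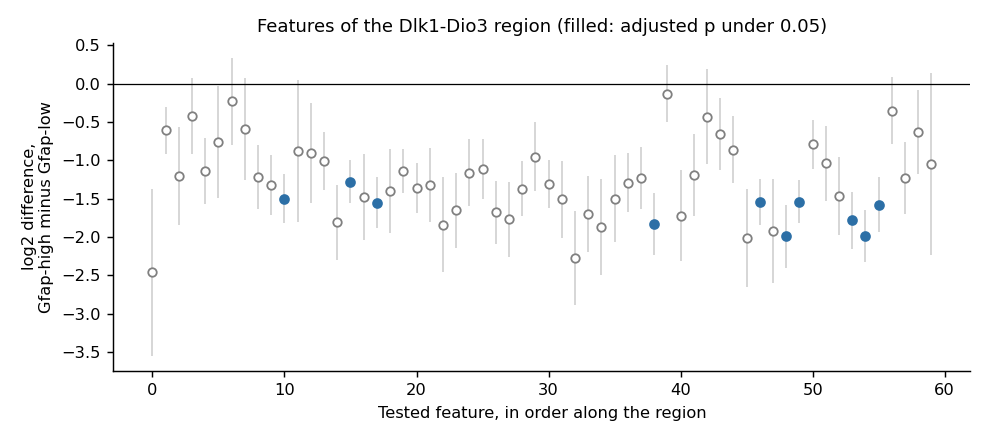
Log2 difference between Gfap-high and Gfap-low tumors (y axis, bars ± 1 SE, n = 6 and 6) for the 60 tested features of the Dlk1-Dio3 region, in their order along the chromosome (x axis). Filled points passed an adjusted p of 0.05 and open points did not. All 60 points lie below 0, with a median of -1.32.

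The microRNA genes in this set are hairpins shorter than the library fragments, so their values count fragments of the longer precursor transcript and not mature microRNA. Mir541 was at 2.42, 4.83 and 16.9 RPKM in Gfap-high (6 to 40 fragments) and 14.7, 24.9 and 36.5 RPKM in Gfap-low tumors (29 to 89 fragments), a log2 difference of -1.99 ± 0.34 (adjusted p = 0.016). Mir134 was at 7.17, 17.1 and 22 against 23.5, 47.2 and 74.4 RPKM (14 to 66 and 37 to 145 fragments), a log2 difference of -1.54 ± 0.30 (adjusted p = 0.028). Mir654, with 0 to 11 fragments in Gfap-high and 15 to 42 in Gfap-low tumors, was at 0 in Retro-orbital tumor 3. Outside the region, 348 microRNA features were tested, of which 2 were higher and 1 lower, with a median log2 difference of 0.10. The mature products of the 6 called hairpins are shown because the region encodes regulatory sequences whose hosts were lower together (RefSeq, GRCm38.p6). For Mir485 only miR-485-3p was among the sequences used. Capitals mark the seed, bases 2 to 8, which pairs with target RNAs, and no 2 of these seeds were the same.
mmu-miR-654-5p: uGGUAAGCugcagaacaugugu
mmu-miR-654-3p: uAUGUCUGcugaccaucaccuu
mmu-miR-134-5p: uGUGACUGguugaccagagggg
mmu-miR-134-3p: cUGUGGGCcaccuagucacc
mmu-miR-485-3p: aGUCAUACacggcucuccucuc
mmu-miR-377-5p: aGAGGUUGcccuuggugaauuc
mmu-miR-377-3p: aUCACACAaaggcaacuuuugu
mmu-miR-541-5p: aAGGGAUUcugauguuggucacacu
mmu-miR-541-3p: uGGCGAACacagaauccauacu
mmu-miR-409-5p: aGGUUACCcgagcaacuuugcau
mmu-miR-409-3p: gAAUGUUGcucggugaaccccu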

How the data were processed

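RNA from 12 P0-CreC;Smarcb1flox/flox mouse RTs was sequenced after depletion of ribosomal RNA with a stranded library kit. The authors aligned reads to mm10 with STAR, used HTSeq to assign uniquely mapped fragments to RefSeq genes, and deposited 1 RPKM value for each gene and tumor; the strand setting of the counting and the gene lengths are not given in the sources used here. Of 24060 gene rows, 27 carried a date in place of a symbol and were never named.

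Tumors were ranked by Gfap RPKM. Genes that reached 1 RPKM in 3 or more tumors were compared on log2(RPKM + 1) with limma 3.58.1 (R 4.3.3, trended and robust prior variance) and Benjamini-Hochberg adjustment at 0.05. A pseudocount of 1 understates changes of low genes. P-values measure the spread between these tumors for a split made on a measured gene, not for a treatment. The spacing of low RPKM values gave the fragment total of each tumor (13205561 to 57128235). Fragment numbers assume the shortest gene length at which all 12 values become whole within 0.02. RPKM intervals for single values were not computed.

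Named genes were the 12 higher and 12 lower genes with the largest difference among called genes with groups that did not overlap, of each list the called genes and the up to 4 with the largest difference, 24 defining genes of the 3 cell types, and Smarcb1. Exceptions are marked as chosen after their values were seen. The members and the 17 gene lists were chosen with earlier results of these data known. Positions and microRNA sequences are from RefSeq on GRCm38.p6, the build of mm10, and 261 of 272 called genes matched by symbol. Alternatives varied the pseudocount, filter, normalization, variance prior, split and tumors, and left each tumor out. Some genes that the rule names are not reported here.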

Additional observations from a re-analysis of the deposited data

Results flagged for a closer look

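Within each Gfap group of 6 tumors, the gap between the most extreme tumor and its neighbour was divided by the range of the group, on the log2(RPKM + 1) scale. A ratio above Dixon's critical value for 6 values was taken as a value far from its group. Of 124 groups of values examined, 11 passed, and chance gives about 1 in 20, which is 6.2. Retro-orbital tumor 4 was the far tumor in 8 of the 11, always above the other Gfap-low tumors: Olig2 (ratio 0.812), Mag (0.81), Slc1a2 (0.799), Gpr37l1 (0.765), Ncan (0.742), Mobp (0.716), Scg3 (0.69) and A2m (0.637). It is also the Gfap-low tumor with the highest Gfap, and its Scg3 level of 1.56 compares with 0.10 to 0.55 in the other 5. Olig2 was close to 0 in all of them, at 0.11 in Retro-orbital tumor 4 and at most 0.02 in the others. Retro-orbital tumor 3 was far from the other Gfap-high tumors for the ependyma and choroid plexus list (ratio 0.707, level 3.10 against 0.69 to 1.39) and for Mir654 (ratio 0.659, 0.00 against 1.70 to 2.58). Vestibular nerve tumor was far for Capg (ratio 0.641, 3.76 against 5.60 to 6.63).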

How the results depend on the processing

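Over 15042 genes the counts were 219 higher and 53 lower, the list calls 14 (astrocyte), 6 (oligodendrocyte) and 8 (neuronal), and the list medians 1.81, 1.13 and 0.73. Constant variance, upper quartile scaling and the block of tumors sharing a title part (251 higher, 47 lower) gave values within 1.5 times of these counts or within the spread of the list level, but under the block 200 of the 272 genes were called in both fits and 11 of 66 named calls were lost. With a pseudocount of 0.1 the medians were 2.84, 2.20 and 1.2. With no filter 28 genes were lower and the oligodendrocyte median was 0.74, and with 1 RPKM in 6 tumors that median was 1.54. Quantile normalization gave 102 higher genes, 2 oligodendrocyte and 5 neuronal calls. Location as a covariate gave 37 and 14 genes, 1, 0 and 0 list calls, and medians of 2.29, 0.73 and 0.19. Gfap as a continuous predictor gave 544 and 132 genes. The 4 highest against the 4 lowest gave an astrocyte median of 2.33 and 3 oligodendrocyte calls. With 1 tumor per title part there were 3 and 0 genes and 2, 0 and 0 list calls. Of the alternatives chosen after seeing the data, 7 against 5 tumors gave 89 lower genes and 5 neuronal calls. Leaving out the 3 meninges tumors gave 86 and 17 genes, 8, 0 and 4 list calls and medians of 0.76 (oligodendrocyte) and 0.35 (neuronal). Leaving out the 3 cheek tumors gave 13 and 10 genes and 4, 0 and 0 list calls. With each tumor left out in turn, 51 to 557 genes were higher and 5 to 237 lower, with 10 to 16 astrocyte, 0 to 7 oligodendrocyte and 4 to 9 neuronal calls. Fewer tumors enter such fits, and beyond that the cause was not tested. Tubb3 changed sign with location as a covariate (-0.88), Gfap as a continuous predictor (-0.05), 4 against 4 (-0.42), without Retro-orbital tumor 4 (-0.07, with a range of -0.07 to 0.59 over the tumors left out in turn), with 7 against 5 (-0.35) and without the meninges tumors (-0.12), Syt1 (-0.90) and Mir409 (0.01) with location as a covariate, and Snap25 with 7 against 5 (-0.04). Of 66 named genes called with 12 tumors, 2 stayed called with 1 tumor per title part, 3 with location as a covariate, 8 without the cheek tumors and 29 without the meninges tumors. No paired analysis was possible because the labels give no replicate numbers for the 2 groups; the only link in the titles was fitted as the block above.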

Other observations

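Some called genes outside the lists are described here. They were picked from the called genes after their values were seen, with no list or count behind them, so they say nothing of a pathway as a whole. Scg3, Chgb, Scg5 and Pcsk1n encode granins and helpers of hormone and neuropeptide granules. Chgb was at 2.63, 4.97 and 12.7 RPKM (lowest, median and highest) in Gfap-high and at 0.00, 0.20 and 0.53 RPKM in Gfap-low tumors, a log2 difference of 2.41 ± 0.29 (SE, adjusted p = 0.003). Scg5 had a log2 difference of 2.32 ± 0.28 (adjusted p = 0.003) and Pcsk1n one of 2.10 ± 0.24 (adjusted p = 0.0016), and neither overlapped between the groups. Chgb and Pcsk1n reached 1 RPKM only in Gfap-high tumors and so entered the test through that group alone, as did Slc6a11, Gria1 and Gria2 below. Called genes that handle GABA, the main inhibitory transmitter, were the transporter Slc6a11 (log2 difference 1.14) and the catabolic enzymes Abat (2.01) and Aldh5a1 (1.02). Abat was at 9.91, 13.1 and 16.0 RPKM against 1.09, 1.85 and 8.72 RPKM. The AMPA receptor subunits Gria1 and Gria4 had log2 differences of 1.80 ± 0.33 and 1.96 ± 0.45 beside the 1.49 of Gria2.

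Of the Hedgehog pathway, 3 genes were called. Hedgehog ligands relieve the receptor Ptch1 of its hold on Smo, and Ptch1, Hhip and Gli1 are transcribed in response. Hhip was at 2.44, 4.69 and 24.2 RPKM in Gfap-high and at 0.09, 0.15 and 0.37 RPKM in Gfap-low tumors (log2 difference 2.56 ± 0.43, adjusted p = 0.014), and since it reached 1 RPKM only in Gfap-high tumors, a difference was built into the filter. Ptch1 was at 12.4, 24.8 and 40.4 against 3.6, 5.07 and 12.7 RPKM (log2 difference 1.84 ± 0.33, adjusted p = 0.019), the highest Gfap-low value being that of Retro-orbital tumor 4. Gli1 was at 5.26, 13.9 and 23.0 against 1.28, 3.48 and 7.84 RPKM (log2 difference 1.57 ± 0.36, adjusted p = 0.048). Of the other genes of the pathway, Gli2, Smo, Sufu and Gli3 had log2 differences of 0.85, 0.64, 0.55 and -0.76 with adjusted p of 0.08, 0.097, 0.26 and 0.33. The ligands Shh, Ihh and Dhh were too low to be tested, with Shh at 0.30 RPKM or less and Dhh at 0.04 to 1.26 RPKM over the 12 tumors.

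Another 4 genes, picked in the same way, were lower in Gfap-high tumors. Hmga2, a chromatin protein of embryonic cells, was at 2.82, 6.18 and 15.7 RPKM against 14.5, 38.4 and 63.0 RPKM (log2 difference -2.05 ± 0.44, adjusted p = 0.038). Igf2bp2, an RNA-binding protein gene whose transcription Hmga2 is known to raise, was at 0.60, 1.25 and 4.45 against 2.56, 13.4 and 17.5 RPKM (log2 difference -2.23 ± 0.43, adjusted p = 0.025). Rbpj, the DNA-binding partner of Notch, had a log2 difference of -1.69 ± 0.34 (adjusted p = 0.031), and Ereg, an epidermal growth factor receptor ligand, one of -3.31 ± 0.68 (adjusted p = 0.032). The groups overlapped for these 4 genes.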
